A study of Mus musculus with 4 samples.

Results

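The 10 genes described here encode the core of the circadian clock: Clock, Arntl, Npas2, Per1, Per2, Per3, Cry1, Cry2, Nr1d2 and Dbp. They were taken by symbol from the gene table, which lists 32285 genes, and each symbol matched 1 gene. All 10 were detected in every library, and their levels were read over 4 single-nucleus RNA-seq libraries of the mouse lateral septum (LS), a forebrain nucleus involved in emotion, motivation and social behaviour. The question asked of them was how their levels differ between the cell classes, and between the strains.

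Each library pooled the tissue of 3 male mice aged 6 to 8 weeks. Libraries C57J 1 and C57J 2 came from immunocompetent C57BL/6JNifdc mice, and C57J 1 alone belonged to the first batch. The nude library came from BALB/c nude mice, which lack a working Foxn1 gene and therefore a thymus and mature T cells, and the BALB/c library from BALB/c mice. Both belonged to the second batch with C57J 2. All mice were anesthetized with pentobarbital and perfused with ice-cold PBS before the LS was taken. The hour of collection is not given in the sources used here, so strain, library and hour cannot be told apart, and because mice were pooled no spread between mice is known. Foxn1 itself was too sparse to check the labels, with 6, 2, 5 and 5 unique molecular identifiers (UMIs) in C57J 1, C57J 2, nude and BALB/c. In the sentences below, runs of 4 values follow that order.

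The mammalian clock is a loop of transcription and repression that runs in nearly every cell. CLOCK, or its relative NPAS2, pairs with ARNTL (also called BMAL1) and binds E-boxes to switch on the Per and Cry genes, whose proteins return to the nucleus and repress the pair. A second loop passes through the REV-ERB receptors, among them Nr1d2 (REV-ERB beta), which repress Arntl, Npas2, Clock and Cry1 through a site that the ROR activators share. Dbp, a PAR bZIP factor that is itself under E-box control, binds D-boxes and is among the most strongly rhythmic transcripts known. A change of phase therefore tends to move Dbp, the Per genes and the REV-ERBs one way and Arntl and Npas2 the other.

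These binding letters can be seen in the members' own upstream sequences, which are shown for what they hold and do not hold of these letters, a description that no later comparison uses. RefSeq start sites on GRCm38.p6 gave 13 windows of 300 bases (250 before and 50 after the start) for 9 of the 10 members, and Per2 had no entry. Searched on both strands, the E-box CACGTG lay in the windows of Per1 and Cry1 and in 7.15% of all 32851 promoter windows. The E-prime-box CACGTT, read in its other-strand form, lay in Cry1 and Cry2 (4.69% of all windows), and the D-box TTATGTAA in Per3 alone of the members (0.938% of all). The REV-ERB and ROR core AGGTCA lay in Clock, Arntl, Per1 and Nr1d2 (16.3% of all), the CRE TGACGTCA in none (1.79% of all), and the windows of Dbp and Npas2 held none of the 5. The searched letters are in capitals in the 250 bases before the start of 4 members, written 5′ to 3′ on the gene's own strand. The Per3 stretch holds 2 D-boxes, 205 and 158 bases before the start. The Per1 stretch holds an E-box at 166 bases and the core at 137. In Cry1 an E-prime-box at 79 bases is followed by an E-box at 60, and in Nr1d2 the core lies at 77.
Per3 (chr4:151044666-151044915, minus strand): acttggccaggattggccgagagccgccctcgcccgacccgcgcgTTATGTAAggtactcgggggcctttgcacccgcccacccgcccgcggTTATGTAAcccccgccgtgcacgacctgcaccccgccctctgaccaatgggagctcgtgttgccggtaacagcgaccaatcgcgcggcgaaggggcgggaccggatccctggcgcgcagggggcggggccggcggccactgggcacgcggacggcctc
Per1 (chr11:69098699-69098948, plus strand): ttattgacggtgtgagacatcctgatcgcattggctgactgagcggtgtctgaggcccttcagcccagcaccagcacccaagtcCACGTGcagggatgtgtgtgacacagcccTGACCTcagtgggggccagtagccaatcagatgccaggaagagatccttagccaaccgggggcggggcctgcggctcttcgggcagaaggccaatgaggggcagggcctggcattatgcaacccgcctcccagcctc
Cry1 (chr10:85185055-85185304, minus strand): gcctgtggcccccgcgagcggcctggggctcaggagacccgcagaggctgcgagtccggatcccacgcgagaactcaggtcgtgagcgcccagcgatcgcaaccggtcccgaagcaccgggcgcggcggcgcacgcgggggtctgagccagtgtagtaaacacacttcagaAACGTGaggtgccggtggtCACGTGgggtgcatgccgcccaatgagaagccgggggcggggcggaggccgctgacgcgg
Nr1d2 (chr14:18239107-18239356, minus strand): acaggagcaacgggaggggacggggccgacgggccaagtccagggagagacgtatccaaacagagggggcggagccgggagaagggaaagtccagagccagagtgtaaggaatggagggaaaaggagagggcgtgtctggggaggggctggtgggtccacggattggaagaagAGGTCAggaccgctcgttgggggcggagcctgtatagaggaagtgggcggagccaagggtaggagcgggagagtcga

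The libraries held between 12558 and 17025 barcodes and between 72912922 and 125998527 UMIs. After the study's limits on genes, UMIs and mitochondrial share and after removal of predicted doublets, 13075, 12489, 12948 and 10913 nuclei were kept. Their median depth was 5354, 4027, 4506 and 8226 UMIs, with the deepest nuclei in the BALB/c library. Libraries shared 29 to 63 barcodes per pair, at most 0.478% of either library. Nuclei were clustered and named from marker genes, so that a class called astrocytes below is a set of astrocyte-like clusters rebuilt here. Of the 7 classes large enough to compare, the neuronal ones were LS neurons (Trpc4, Homer2), striatal neurons (Rarb, Rgs9) and other neurons. The last took clusters scoring highest for medial septal markers such as Elavl2 and Lhx6, or low for every neuron set. The glial ones were astrocytes (Gja1, Aqp4), oligodendrocytes (OLs, with Mog and Mag), oligodendrocyte precursors (OPCs, with Pdgfra and Cspg4) and microglia (Csf1r, Inpp5d). UMIs were summed per library and class and given as CPM, a share of that sum scaled to 1e6 UMIs. In these sums fewer cells expressing a gene and less RNA per cell cannot be told apart, and all intervals given below cover counting error only. Over all nuclei the sum of a member in a library lay between 1133 UMIs (Cry1 in C57J 2) and 20953 UMIs (Npas2 in BALB/c).

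Among the compared classes most of the clock genes had their highest level, as a share of the class's UMIs, in astrocytes. Astrocyte nuclei held fewer UMIs (median 2694, 1990, 2099 and 4363) than LS neurons (8097, 6543, 6446 and 12767). The order by UMIs per nucleus can therefore differ and was not compared. Nr1d2 was highest in astrocytes, at 184 to 191 CPM over the 4 libraries, against 112 to 130 CPM in microglia, the next class, and 66.5 to 72.1 CPM in LS neurons. Per2 stood at 86.8 to 95.4 CPM in astrocytes and 52.6 to 66.0 CPM in OPCs, and in no library of the other compared classes did it reach those values. Per3 and Cry2 likewise ranked first in astrocytes with no overlap with the next class, at 133 to 214 CPM and 106 to 128 CPM. Dbp, Per1, Arntl and Cry1 also had their highest mean there, and the libraries of each overlapped those of another class, for Cry1 those of OPCs (19.5 to 35.0 CPM, beside 31.0 to 34.1 CPM in astrocytes). In vascular and ependymal nuclei, too few to compare, Per2 ranged from 57.6 to 129 CPM and from 64.3 to 191 CPM. These levels rest on 2 to 26 and on 3 to 7 UMIs per library. Per1, Cry1, Cry2 and Dbp also had a higher mean in vascular or ependymal nuclei than in astrocytes, and Arntl, Per3 and Nr1d2 did not. Among the compared classes astrocytes led the order by CPM for 8 of the 10 members.

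The other 2 members, the alternative partners of ARNTL, were ordered differently. Clock was highest in LS neurons, at 170 to 180 CPM, and lowest in astrocytes, at 87.1 to 94.6 CPM, below every other compared class. Npas2 was highest in striatal neurons, at 384 to 506 CPM, followed by LS neurons at 177 to 254 CPM and astrocytes at 113 to 287 CPM, which overlapped. Its level in OLs, OPCs, microglia and other neurons did not exceed 73.1 CPM in any library. Among neuron classes Per3 was lowest in LS neurons (22.7 to 30.4 CPM) and highest in striatal neurons (43.5 to 51.6 CPM), and Dbp was also lowest in LS neurons, at 6.38 to 14.7 CPM. For both genes LS and other neurons overlapped.

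**Figure D1:**
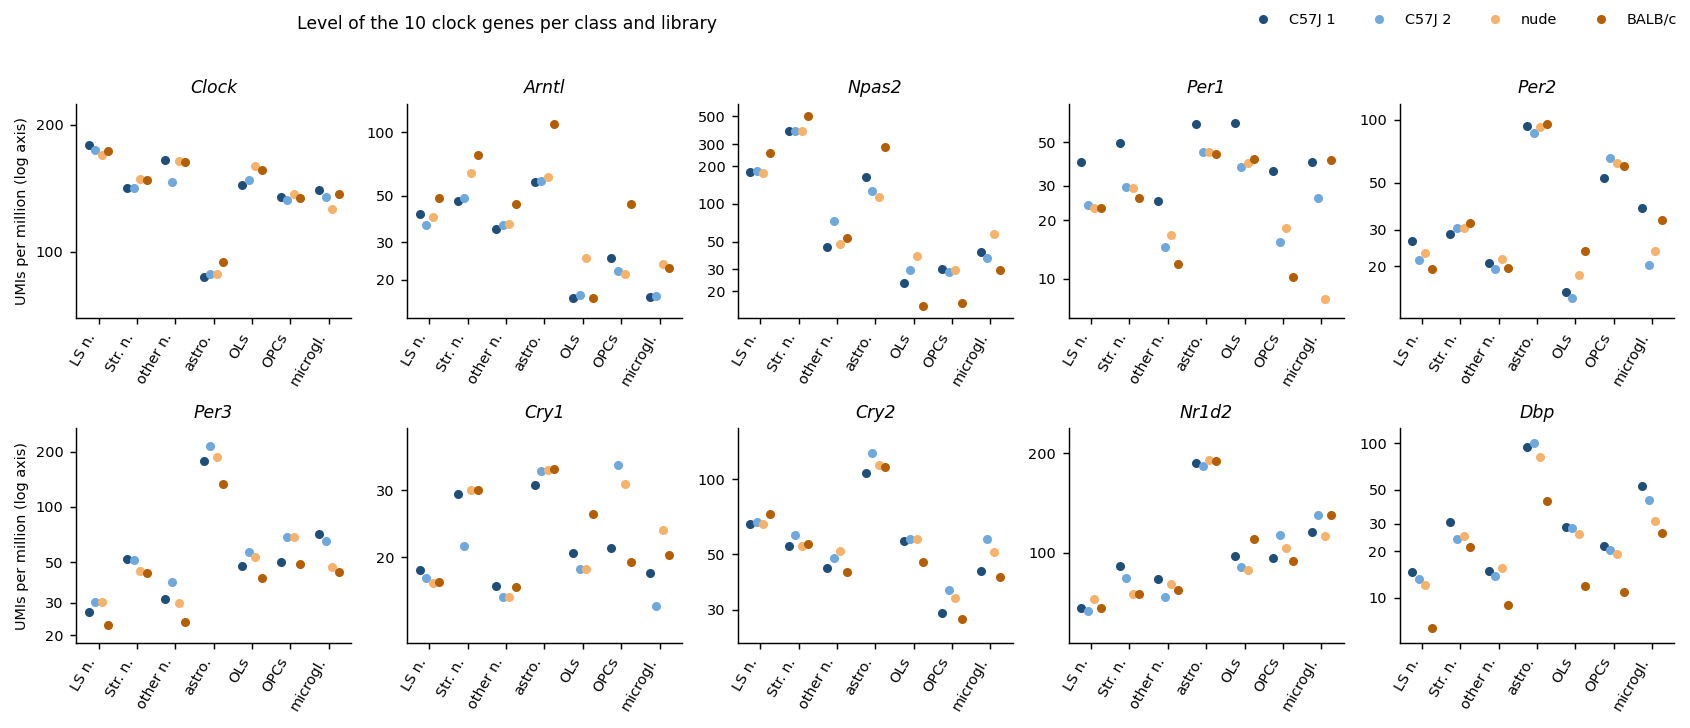
Level of each of the 10 clock genes in CPM (log axis) in 7 classes, 1 point per library. Astrocytes stand highest for 8 genes, and Clock is lowest there (87.1 to 94.6 CPM). The BALB/c point lies lowest in every class for Dbp and Per3, for Per3 by a small margin in striatal neurons, OPCs and microglia.

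Comparing the 2 C57J libraries with the nude and BALB/c libraries together, as the BALB/c background, called none of the 10 members in any class. Nude and BALB/c count as replicates of the same group here, so a difference between them widens the spread. A change in BALB/c alone is therefore hard to call. The test was the quasi-likelihood F test of edgeR, a call was made on the Benjamini-Hochberg p over all genes tested, and it needed an adjusted p under 0.05 and an absolute log2 fold change over 0.5. The share of all tested genes called was 1.43% in all nuclei, 2.17% in LS neurons, 0.569% in striatal neurons, 1.23% in other neurons, 0.0636% in astrocytes, 0.00793% in OLs, 0.343% in OPCs and 0% in microglia, a small background in each class. At an unadjusted p under 0.05 there was 1 member in all nuclei (Dbp), striatal neurons (Arntl), other neurons (Per3) and OPCs (Per1), and 0 in the other 4. That limit was also met by 2596 of 20418 tested genes in all nuclei and 1209 of 13010 in striatal neurons. In other neurons 1859 of 15968 met it, and in OPCs 875 of 11068, so these members do not stand out from all genes. DESeq2 called 0 members in every class. The members' median log2 fold change in all nuclei was 0.00, beside -0.01 over all genes. In all nuclei 3 members (Per1, Per3 and Dbp) had both BALB/c-background libraries below both C57J libraries, and 0 had both above, where 24.7% and 17.7% of all genes did so. An exact permutation test of a single value over 2 against 2 libraries cannot give a p under 0.333. Where values without 1 library are given below, 1 side of the comparison is a single library, so the spread comes from the other side's pair alone and the lone library is assumed to vary like it.

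Dbp (chr7:45705088-45710203 on GRCm38, as all gene positions here), the PAR bZIP output gene, had the widest spread of the 10 between libraries in all nuclei and in LS neurons, with BALB/c lowest. In astrocytes and OLs Npas2 spread further, and in striatal and other neurons, OPCs and microglia Per1 did. In LS neurons its level was 14.7, 13.2, 12.1 and 6.38 CPM. In astrocytes it was 94.7, 99.6, 81.5 and 42.4 CPM, and in OLs 28.7, 28.4, 25.8 and 12 CPM. In each of these classes C57J 1, C57J 2 and nude lay near one another and BALB/c well below them. On the log2 scale, BALB/c over nude was -0.92 (95% interval -1.11 to -0.73) in LS neurons, -0.94 (-1.16 to -0.72) in astrocytes and -1.11 (-1.63 to -0.58) in OLs. In other neurons it was -0.80 (-1.12 to -0.49), and in striatal neurons, OPCs and microglia the intervals included 0. The nude library stood apart far less from C57J 2 of the same batch: nude over C57J 2 was -0.13 (-0.31 to 0.05) in LS neurons and -0.29 (-0.50 to -0.07) in astrocytes. With nude and BALB/c as 1 group the log2 fold change was -0.60 (SE 0.24) in all nuclei and -0.60 (SE 0.29) in astrocytes, with adjusted p of 0.37 and 0.731 in edgeR's test. Within the second batch, without C57J 1, the value in all nuclei was -0.49. Without the nude library Dbp was called in astrocytes (-1.06, edgeR adjusted p = 0.0012) and OLs (-1.11, adjusted p = 0.0185), where 8.29% and 9.09% of all tested genes were called, and without BALB/c the astrocyte value was -0.22 (adjusted p = 0.957). Dbp overlaps Sphk2 on the other strand, and whether counting used the strand is not given in the sources used here.

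Per3 (chr4:151003652-151044665) was, like Dbp, lower in BALB/c than in nude, by a smaller amount. Its level was 26.6, 30.2, 30.4 and 22.7 CPM in LS neurons and 178, 214, 187 and 133 CPM in astrocytes. BALB/c was the lowest library in both. BALB/c over nude was -0.42 (-0.53 to -0.31) in LS neurons and -0.49 (-0.62 to -0.36) in astrocytes. BALB/c was in fact the lowest of the 4 libraries in all 7 classes for Dbp and for Per3 and for no other member. That pattern held for 2.56% of the 8384 genes tested in every class. For Per3 the margin was small in OPCs, with 48.8 CPM beside 50.2 CPM in C57J 1. Intervals of BALB/c over nude included 0 in striatal neurons (-0.04, -0.39 to 0.32) and microglia (-0.10, -0.88 to 0.70). The group comparison gave Per3 a log2 fold change of -0.38 (SE 0.16, edgeR adjusted p = 0.423) in other neurons, with 31.6, 38.7, 30.1 and 23.6 CPM there, and smaller values in LS neurons (-0.07) and astrocytes (-0.22). Per3 overlaps Camta1 on the same strand, so its reads may be shared.

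Per1 (chr11:69095217-69109960), which answers to activity and glucocorticoids as well as to the clock, differed most between the C57J libraries. Over all nuclei it measured 41.3, 24.4, 23.6 and 23.8 CPM, and in LS neurons 39.9, 24.0, 23.0 and 23.2 CPM. C57J 1, the only library of the first batch, stood above the other 3, which lay close to one another. C57J 1 over C57J 2 was 0.76 (0.67 to 0.85) in all nuclei, 0.73 (0.62 to 0.85) in LS neurons, 0.48 (0.22 to 0.75) in astrocytes and 1.21 (0.44 to 2.03) in OPCs. BALB/c over nude was 0.01 (-0.08 to 0.11) in all nuclei. The log2 fold change of the group comparison, -0.46 (SE 0.25, edgeR adjusted p = 0.537) in all nuclei, became 0.00 without C57J 1. Without C57J 2, with C57J 1 as the lone C57J library, Per1 was called in LS neurons (-0.79, edgeR adjusted p = 0.00566), as were 4.81% of all tested genes.

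Per2, the other light-responsive period gene, showed neither pattern in astrocytes, where it measured 93.1, 86.8, 92.2 and 95.4 CPM. In LS neurons its levels were 26.4, 21.5, 23.3 and 19.4 CPM, with BALB/c lowest and C57J 1 highest. BALB/c over nude was -0.26 (-0.38 to -0.14) there and 0.05 (-0.13 to 0.23) in astrocytes. The fitted log2 fold change was -0.15 (SE 0.15, edgeR adjusted p = 0.744) in LS neurons.

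Arntl (chr7:113207465-113314126), the partner common to CLOCK and NPAS2, was highest in BALB/c in 5 of the 7 classes. In astrocytes it measured 58.3, 58.6, 61.3 and 109 CPM, in LS neurons 40.9, 36.3, 39.8 and 48.7 CPM, and in OPCs 25.4, 22.0, 21.4 and 45.6 CPM. In astrocytes and OPCs the first 3 libraries lay close together with BALB/c well above. BALB/c over nude was 0.84 (0.63 to 1.04) in astrocytes, 0.29 (0.20 to 0.38) in LS neurons and 1.1 (0.50 to 1.74) in OPCs. In OLs that ratio was -0.63 (-1.12 to -0.12), on 103 UMIs in BALB/c and 53 in nude. There nude was the high library, at 16.4, 16.9, 25.3 and 16.4 CPM, and BALB/c over C57J 2 was -0.04 (-0.54 to 0.48). Striatal neurons, with 47.4, 48.6, 64.4 and 78.4 CPM, had both BALB/c-background libraries above both C57J libraries, as did other neurons, astrocytes and microglia (16.5, 16.7, 23.6 and 22.6 CPM, on 9 to 19 UMIs). That held for 2061 of 13010 tested genes in striatal and 2926 of 15968 in other neurons. In astrocytes it held for 1702 of 14143 and in microglia for 1256 of 8955. Nude over C57J 2 was 0.41 (0.07 to 0.74) in striatal neurons. It was 0.017 (-0.187 to 0.221) in other neurons and 0.065 (-0.199 to 0.329) in astrocytes. In the group comparison striatal neurons gave a log2 fold change of 0.62 (SE 0.16, edgeR adjusted p = 0.175). In edgeR's test that value passed the threshold without the filter on low counts (adjusted p = 0.0336, with 2.16% of all genes called) and with BALB/c alone against the C57J pair (0.76, adjusted p = 0.0226, with 2.58% of all genes called). The striatal class held 1578, 711, 492 and 445 nuclei, and a cluster of it led by Drd3 and Gpr149 drew 318 of its 422 nuclei from C57J 1. Whether that make-up bears on Arntl was not tested. In astrocytes the group comparison gave 0.64 (SE 0.30, edgeR adjusted p = 0.72), and with BALB/c alone against the C57J pair Arntl was called there (1.04, adjusted p = 0.000724), beside the 8.29% of all genes given above.

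Npas2 (chr1:39193731-39363236) was, like Arntl, higher in the BALB/c astrocytes, and in the other glia it was lower. In astrocytes it stood at 164, 128, 113 and 287 CPM and in LS neurons at 180, 185, 177 and 254 CPM. In striatal neurons the levels were 384, 386, 384 and 506 CPM, so that the first 3 libraries were nearly equal and BALB/c higher. BALB/c over nude was 1.34 (1.19 to 1.49) in astrocytes, 0.52 (0.48 to 0.56) in LS neurons and 0.40 (0.29 to 0.51) in striatal neurons. In OLs it was -1.34 (-1.78 to -0.89) and in OPCs -0.87 (-1.52 to -0.22), where levels were 23.4, 29.7, 38.7 and 15.3 CPM and 30.2, 28.5, 29.8 and 16.3 CPM. The 5 neuron markers were likewise lowest in BALB/c in these glia: their summed level in OLs, as a share of that in LS neurons, was 18.8%, 22.6%, 28.7% and 11.3%, beside 13%, 16.1%, 21.9% and 6.03% for Npas2. All 5 markers were detected in every glial class. In astrocytes their share was 17.2%, 22.3%, 24.4% and 11.3%, beside 91.2%, 69.2%, 64% and 113% for Npas2. The part of RNA from neurons in the astrocyte, OL and OPC values was not tested. The group comparison gave Npas2 a log2 fold change of 0.55 (SE 0.44, edgeR adjusted p = 0.835) in astrocytes, 1.1 (adjusted p = 0.000521) with BALB/c alone against the C57J pair and -0.34 (adjusted p = 0.845) with nude alone against it. The former is beside the same 8.29% of all astrocyte genes called.

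**Figure D2:**
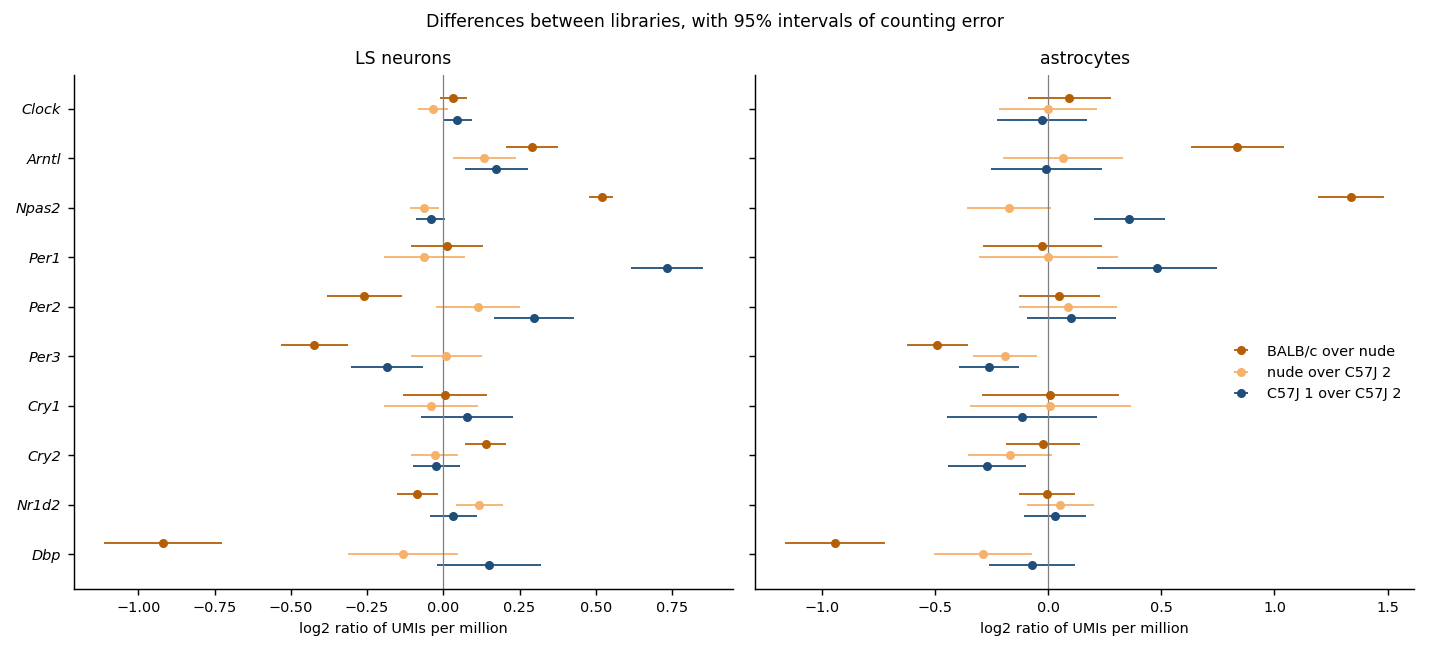
Log2 ratio of CPM for each clock gene between pairs of libraries in LS neurons (left) and astrocytes (right), with bars for the 95% interval of counting error. Dbp (-0.92 and -0.94) and Per3 lie left of 0 and Arntl and Npas2 right of 0 for BALB/c over nude, while C57J 1 over C57J 2 is furthest from 0 for Per1 (0.73 and 0.48).

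Clock, Cry1, Cry2 and Nr1d2 differed little when all nuclei were summed, and more in some single classes. Over all nuclei Clock measured 163, 158, 161 and 161 CPM and Nr1d2 83.7, 79.7, 82.4 and 84.0 CPM, the highest library being 1.03 and 1.05 times the lowest. Cry1, at 20.5, 18.9, 18.7 and 19.9 CPM, and Cry2, at 63.1, 66.0, 64.8 and 66.3 CPM, spread by 1.09 and 1.05 times. The activator Clock, both CRY repressors and this REV-ERB thus had nearly the same level in every library when all nuclei were summed. In astrocytes Nr1d2 stood at 187, 184, 191 and 190 CPM, beside the 42.4 to 99.6 CPM range of Dbp in the same nuclei. BALB/c over nude was -0.01 (-0.13 to 0.12) for Nr1d2 and 0.01 (-0.29 to 0.31) for Cry1 in astrocytes, and 0.00 (-0.04 to 0.04) for Clock over all nuclei. Intervals in some other classes excluded 0. There BALB/c over nude was -0.685 (-1.295 to -0.065) for Cry1 in OPCs and -0.278 (-0.435 to -0.121) for Cry2 in other neurons. For Nr1d2 in OLs it was 0.313 (0.077 to 0.555). In LS neurons it was 0.139 (0.071 to 0.207) for Cry2 and -0.085 (-0.152 to -0.017) for Nr1d2. Cry1 in OPCs also differed between the C57J libraries (C57J 1 over C57J 2 -0.727, -1.413 to -0.049). The log2 fold changes of Clock, Cry1, Cry2 and Nr1d2 in all nuclei lay between -0.02 (Cry1) and 0.04 (Nr1d2), with adjusted p of 0.977 and 0.917 in edgeR's test.

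The members past 1.5-fold between single libraries were counted over all 10 genes. For BALB/c over nude, 0 were higher and 1 lower (Dbp) in all nuclei, where 8.18% and 6.22% of all tested genes passed. In LS neurons 0 were higher and 1 lower (Dbp), beside 3.29% and 8.55%, in other neurons 0 and 1 (Dbp), beside 4.12% and 8.13%, and in striatal neurons 0 and 0, beside 6.43% and 12.2%. Astrocytes had 2 higher (Arntl and Npas2) and 1 lower (Dbp), beside 7.43% and 16.4%. In the sparser glia the counts were 0 higher and 3 lower (Arntl, Npas2 and Dbp) in OLs, beside 6.98% and 24.8%. OPCs had 1 higher (Arntl) and 4 lower (Npas2, Per1, Cry1 and Dbp), beside 6.19% and 13.1%. Microglia had 1 higher (Per1, on 4 and 34 UMIs) and 1 lower (Npas2), beside 17.4% and 21.5%. Between nude and C57J 2 of the same batch, 0 members were higher and 0 lower in all nuclei, beside 5.17% and 10.7%. Between the C57J libraries 1 was higher in C57J 1 (Per1) and 0 lower, beside 4.03% and 12.2%. In all nuclei and the neuronal classes at most 1 of the 10 members thus passed in either direction, in astrocytes at most 2, in OLs at most 3 and in OPCs at most 4.

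**Figure D3:**
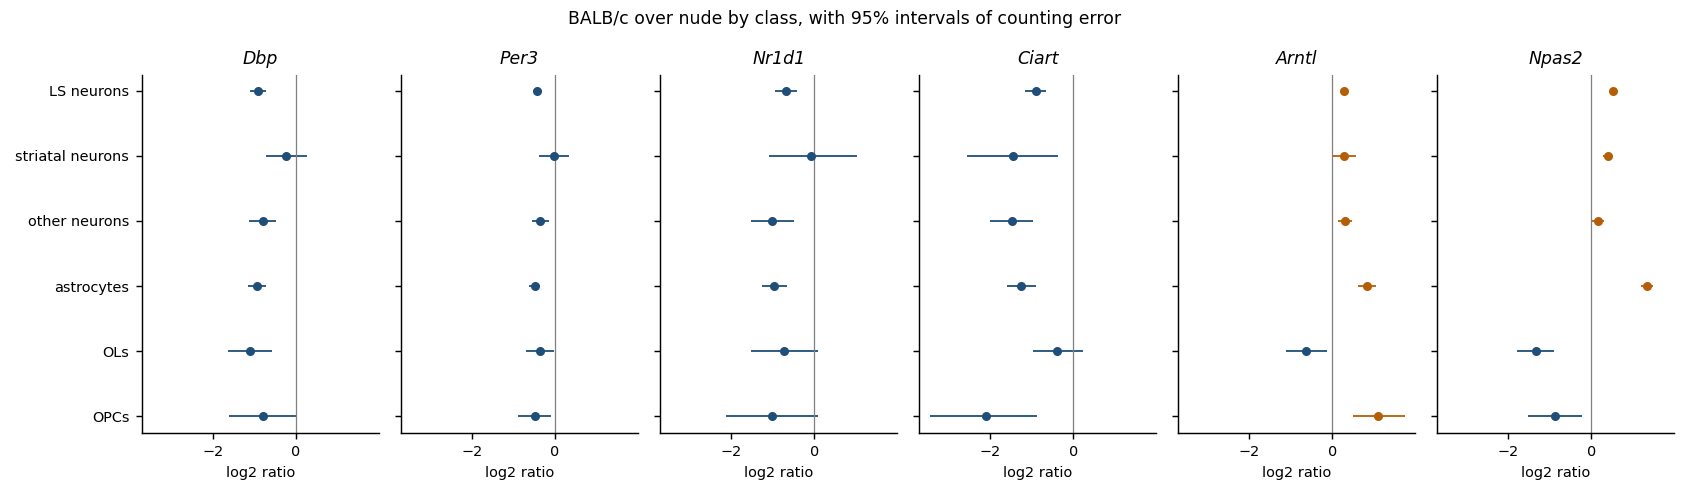
Log2 ratio of BALB/c over nude in 6 classes for Dbp, Per3, Nr1d1 and Ciart (blue) and Arntl and Npas2 (orange where above 0), with bars for the 95% interval of counting error. Dbp, Per3, Nr1d1 and Ciart lie at or below 0 in the 6 classes, and Npas2 ranges from 1.34 in astrocytes to -1.34 in OLs. The genes drawn are a selection, with Ciart chosen after its values were seen, so their shared direction is no result of its own. Per1, Per2 and Nr1d2, not drawn, were at -0.03, 0.05 and -0.01 in astrocytes.

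Both arms were summarized as a clock contrast, the mean log2(CPM + 1) of Per1, Per2, Per3, Nr1d2 and Dbp minus that of Arntl, Npas2, Clock and Cry1. It describes a library and carries no test. In astrocytes it was 0.65, 0.65, 0.61 and -0.24, and in LS neurons -1.17, -1.30, -1.29 and -1.81. In both classes C57J 1, C57J 2 and nude lay within 0.14 of one another and BALB/c lay lower. BALB/c minus nude was -0.84 in astrocytes, -0.52 in LS neurons and -0.40 in all nuclei, beside SDs between the C57J libraries of 0.002, 0.096 and 0.076. Nude minus C57J 2 was -0.04, 0.01 and -0.08 in these 3. Each SD rests on the C57J pair alone, which came from different batches. In astrocytes that pair was nearly equal here, but stood at 0.77 and 0.68 after thinning and at 1.03 and 1.18 without Per1 and Per2. BALB/c was also the lowest library in striatal neurons (-1.67), other neurons (-1.25) and OPCs (-0.23). In OLs (-0.10) and microglia (-0.48) nude was lowest. The OL order depended on the form of the contrast. Nude and BALB/c were nearly equal there after thinning (0.063 and 0.056) and without Per1 and Per2 (0.248 and 0.245). In microglia nude had 4 UMIs of Per1, and without Per1 and Per2 the contrast there was 1.03, 1.06, 0.29 and 0.51, with nude still lowest.

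**Figure D4:**
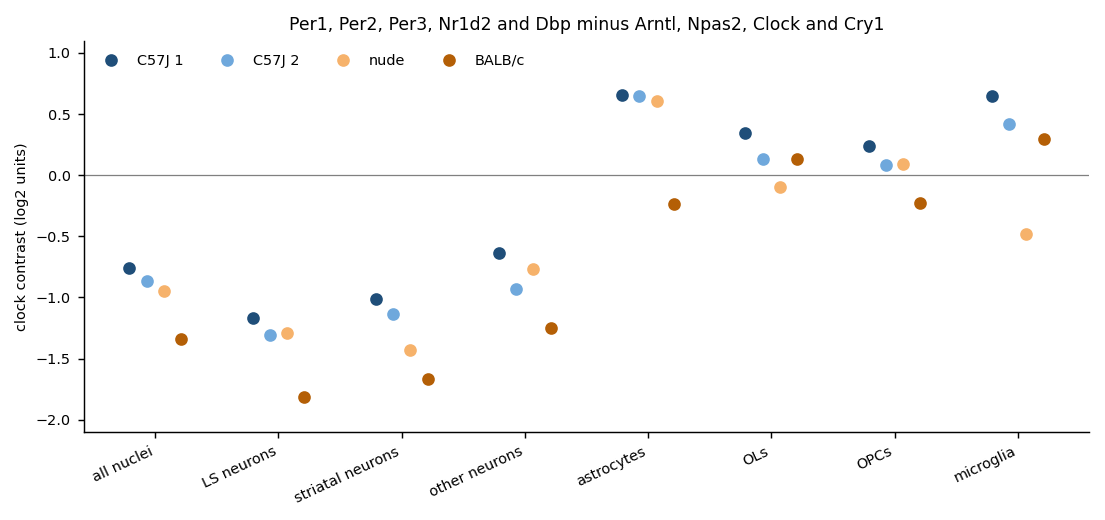
Clock contrast in log2 units (mean of Per1, Per2, Per3, Nr1d2 and Dbp minus mean of Arntl, Npas2, Clock and Cry1) per class, 1 point per library. BALB/c is lowest in all nuclei and 5 of the 7 classes, and astrocytes stand at 0.61 in nude and -0.24 in BALB/c.

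Further clock factors were read as a list of 15 genes, of which 0 were called in any class. In all nuclei 4 of the 15 (Nr1d1, Bhlhe40, Tef and Hlf) had both BALB/c-background libraries below both C57J libraries and 0 above, beside 24.7% and 17.7% of all genes. Nr1d1 (REV-ERB alpha), the closest relative of Nr1d2, measured 12.8, 11.1, 8.97 and 5.63 CPM over all nuclei and 67.4, 54.9, 45.9 and 23.6 CPM in astrocytes. Unlike Nr1d2 it was lowest in BALB/c in every one of the 7 classes, and its log2 fold change in all nuclei was -0.71 (SE 0.25, edgeR adjusted p = 0.32). It overlaps Thra on the other strand. Bhlhe40 (DEC1), a repressor of E-box transcription, had 14.6, 13, 10.7 and 10.1 CPM (-0.40, SE 0.14, adjusted p = 0.328). Tef, a relative of Dbp, had 97.4, 84.0, 81.5 and 81.4 CPM, and Hlf, another, 48.4, 41.0, 35.6 and 40.2 CPM. Summed over all nuclei, BALB/c was near nude for Tef and above it for Hlf. By class, BALB/c was the lowest library in 4 of the 7 for Tef and in 3 for Hlf, LS neurons among them, and in OLs Hlf measured 38.2, 27.7, 34.9 and 12.8 CPM. Ciart, Rora and Rorb were chosen after their values were seen. Ciart, a repressor of the CLOCK pair, measured 28.5, 29.9, 35.7 and 15.0 CPM in astrocytes and was lowest in BALB/c in all 7 classes. Rora, an ROR activator of Arntl, measured 5219, 4527, 4184 and 7953 CPM there, and Rorb 1021, 894, 897 and 1330 CPM. In LS neurons both were lower in BALB/c than in nude (-0.14, -0.16 to -0.12, and -0.66, -0.79 to -0.53). Nude was the highest library there for both. Rora measured 580.8, 592, 631.3 and 572.5 CPM and Rorb 16.05, 18.16, 23.94 and 15.18 CPM. A link of either gene to the level of Arntl was not tested.

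The kinases and ubiquitin ligases that set the stability of PER and CRY proteins were read as another list. In all nuclei their highest library was 1.04 to 1.44 times the lowest. Of 10 genes 0 were called in any class, and in all nuclei 4 were lower in both BALB/c-background libraries than in both C57J libraries, beside 24.7% of all genes. Csnk1d (casein kinase 1 delta) had 52.3, 44.2, 43.2 and 44.2 CPM, which repeats the high C57J 1 seen for Per1, and Csnk2b had 10.4, 9.51, 8.46 and 9.49 CPM. Btrc, at 188, 188, 180 and 183 CPM, and Usp7, at 87.2, 88.3, 86.3 and 83.5 CPM, spread by 1.04 and 1.06 times between libraries.

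Signals to which Per1 also answers were listed beside it. Of 12 immediate early genes, 0 were called in any class, and Ier2 alone had both BALB/c-background libraries above both C57J libraries in all nuclei (1.47, 1.5, 1.79 and 2.45 CPM). That pattern held for 17.7% of all genes. Between the C57J libraries 10 of the 12 were higher in C57J 1 in all nuclei, with a median log2 ratio of 0.44 against -0.04 over all tested genes, in the same direction as Per1. In LS neurons all 12 were higher in BALB/c than in nude, with a median of 0.78 against -0.02, and there Per1 was nearly equal between those libraries. In astrocytes 4 of the 12 were higher and 8 lower, with a median of -0.36 against -0.08. Of 9 glucocorticoid-responsive genes 8 were higher in C57J 1 than in C57J 2 in all nuclei (median 0.32), and all 9 were higher in BALB/c than in nude (median 0.60 against 0.02). By class the latter list was 7 higher and 2 lower in astrocytes (median 1.43 against -0.08) and 5 higher and 4 lower in LS neurons (median 0.03 against -0.02). Zbtb16, which glucocorticoids induce in many tissues, was called in LS neurons at 45.8, 44.7, 71.0 and 72.7 CPM (0.69, SE 0.09, edgeR adjusted p = 0.0121). It was the 1 call of that list in any class. Errfi1 (18.2, 18.6, 21.1 and 28.3 CPM), Pdk4 (1.85, 1.49, 1.99 and 6.98 CPM) and Zbtb16 were higher in both BALB/c-background libraries in all nuclei without a call there. They stand beside the same 17.7% of all genes. Of 8 genes that follow temperature, Rbm3, a cold-inducible RNA-binding protein, was called lower in LS neurons, at 50.8, 42.4, 24.8 and 23.9 CPM (-0.92, SE 0.13, edgeR adjusted p = 0.0181). In all nuclei Rbm3 and Hspa8 (133, 144, 115 and 131 CPM for Hspa8) lay below both C57J libraries, as did 24.7% of all genes. Hsp90aa1 lay above both (121, 126, 131 and 189 CPM), as did 17.7%. Rbm3 and Zbtb16 thus passed the test in LS neurons, where no clock member did, and the part of activity, handling or temperature in any member's value was not tested.

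Genes whose pattern was most like that of Dbp were sought over 28 points, the 7 classes in 4 libraries, after the mean of each class was taken off. The 4 libraries are shared by all classes, so the correlation is a description of these points. Among 10128 genes Luzp1 (r = 0.91), Nr1d1 (0.89) and Maz (0.89) came highest, and Hspa5 (-0.88), Sfi1 (-0.88) and Gpatch8 (-0.86) lowest. Luzp1 measured 90.1, 81.1, 72.0 and 28.5 CPM in LS neurons, and Hspa5, the endoplasmic reticulum chaperone BiP, 33.1, 37.2, 42.1 and 74.6 CPM. Among the members Per3 (0.77) and Per1 (0.42) were most like Dbp and Arntl least (-0.65), with Npas2 at 0.00.

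Values that moved with BALB/c were also read beside these patterns. BALB/c had the deepest library, and thinning every nucleus to 1000 UMIs left the BALB/c minus nude clock contrast in astrocytes at -0.70. Other classes moved more. Nude and BALB/c went from -1.43 and -1.67 to -1.33 and -2.21 in striatal neurons, and from -0.10 and 0.13 to 0.063 and 0.056 in OLs. Over 10 bins of gene length the median BALB/c over nude ratio in LS neurons lay between -0.03 and -0.02. In striatal neurons it lay between -0.064 and -0.027 and in other neurons between -0.051 and 0.019. Whether gene length bears on a single member was not tested. In astrocytes the longest bin had a median of -0.18, and with the bin's median taken off Npas2 stood at 1.52 and Dbp at -0.85. In OLs the longest bin had -0.64, and Npas2 there went from -1.34 to -0.70. The make-up of the astrocytes differed at a finer clustering, chosen for this reading after the data were seen. At resolution 2 they fell into 5 clusters, of which a cluster led by Nhsl1 and Gm12239 held 418, 173, 164 and 832 nuclei and one led by Prex2 and Gm6145 481, 505, 449 and 144. Within each of the 5, BALB/c over nude kept its sign for Dbp, Per3, Arntl and Npas2. It ran from -1.08 to -0.49 for Dbp, -0.94 to -0.42 for Per3, 0.43 to 1.32 for Arntl and 0.67 to 1.70 for Npas2. The interval included 0 only for Dbp in the cluster led by Veph1 (-0.49, -1.22 to 0.26). The OL class also differed in make-up, with 263, 325, 282 and 656 nuclei in a cluster led by Anln and Hapln2, and its part in the OL values was not tested.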

How the data were processed

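Nuclei of 4 LS libraries were sequenced with 10x 3′ chemistry, each library pooling 3 mice. Per the labels, the authors made the deposited UMI counts per gene and barcode with Cell Ranger 7.0.1 on mm10; whether intronic reads and strand were used is not given in the sources used here. The study's limits were applied, doublets were predicted per library from simulated doublets (0.8% per 1000 nuclei), and nuclei were clustered (leidenalg 0.10.2, 40 principal components) and named from marker lists. Raw UMIs were summed per library and class and tested with edgeR 4.0.16 (filterByExpr, TMM, quasi-likelihood F test, Benjamini-Hochberg adjustment) in R 4.3.3, as 2 C57J libraries against nude and BALB/c. The script was tested on simulated counts. Because the libraries are pools, p-values measure the spread between libraries only. Pairs of libraries were compared as log2 ratios of CPM with exact conditional binomial (Clopper-Pearson) 95% intervals, and likeness to Dbp was limited to genes of at least 10 CPM on average. Where the text sets a fold, it is 1.5. Alternatives were DESeq2 1.42.0, no TMM, no filter, no fold limit, a batch term, each library left out, doublets kept, resolution 2, stricter limits, thinning to 1000 UMIs, all barcodes, and other forms of the contrast. A centring on gene length and ratios within single astrocyte clusters were added after seeing the data. The members and gene lists were chosen with earlier results of these data known. Named genes are the 10 members in every class, and genes of the 5 further lists where they passed the test or where the C57J libraries did not overlap the others in all nuclei. Ciart, Rora and Rorb were named outside this rule, after their values were seen. The unnamed nuclei and 3 classes with fewer than 100 nuclei per library were not compared.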

Additional observations from a re-analysis of the deposited data

Results flagged for a closer look

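Npas2 was singled out because nude and BALB/c differed from both C57J libraries in opposite directions over all nuclei. Nude over C57J 1 was -0.187 and nude over C57J 2 was -0.081 on the log2 scale, while BALB/c over C57J 1 was 0.282 and BALB/c over C57J 2 was 0.387. The difference between the strains' ratios was not tested, since each has 1 library, and the ratios share the C57J libraries. All nuclei mix the classes, and striatal neurons, where Npas2 was highest, made up 12.1%, 5.69%, 3.8% and 4.08% of nuclei. Nude over C57J 1 and over C57J 2 was -0.001 and -0.006 in striatal and -0.019 and -0.062 in LS neurons. It was -0.531 and -0.174 in astrocytes, and 0.730 and 0.381 in OLs. The part of class make-up in the all-nuclei ratios was not tested.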

How the results depend on the processing

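The group comparison rests on 2 against 2 pooled libraries, and calls depended on which were kept. Genes called under DESeq2 were 738 in all nuclei, 679 in LS neurons, 91 in astrocytes, 66 in OLs and 13 in microglia (edgeR 291, 407, 9, 1 and 0), with 0 members among them. Without a filter the counts were 796 in all nuclei, 1033 in LS, 486 in striatal and 642 in other neurons, 350 in astrocytes, 235 in OLs, 188 in OPCs and 83 in microglia, with 1 member (Arntl) in striatal neurons. A batch term left 47 in all nuclei, 178 in striatal neurons and 0 in astrocytes and OLs. Thinning left 150 in all nuclei, 203, 8 and 53 in LS, striatal and other neurons, 0 in astrocytes, 5 in OLs and 15 in OPCs. OLs had 9 at resolution 2, 10 with doublets kept and 9 under stricter limits, and microglia 29 with doublets kept. Leaving out each library gave 37 to 122 genes in all nuclei, 17 to 931 in LS, 56 to 461 in striatal and 106 to 483 in other neurons, 0 to 1262 in astrocytes, 0 to 1202 in OLs, 47 to 529 in OPCs and 0 to 910 in microglia. The highest counts came without nude in the 4 glial classes and without C57J 2 in the rest, and the lowest came without BALB/c in the neuronal classes and without C57J 1 in all nuclei and OPCs. Some members were called in these fits, which leave a single library on 1 side. Their counts per class are therefore not given.

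Of 145 alternative log2 fold changes of members 133 kept their side of the threshold, 9 passed it and 3 changed sign: Per1 in all nuclei was 0.002 with a batch term, which sets C57J 1 aside, and 0.002 without C57J 1 (range -0.814 to 0.002), and Npas2 in astrocytes was -0.340 without BALB/c (to 1.103 without nude). Of 84 alternative BALB/c over nude ratios of Dbp, Per3, Arntl and Npas2, single astrocyte clusters included, 16 moved past their interval and 0 changed sign.

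The clock contrast for nude and BALB/c minus C57J ranged from -0.530 to -0.135 in all nuclei, -0.577 to -0.057 in LS neurons and -0.887 to -0.043 in astrocytes as libraries were left out, smallest without BALB/c each time. In astrocytes the C57J libraries differed by so little that small shifts count as moved: this contrast and BALB/c minus nude were -0.467 and -0.839 with doublets kept, -0.462 for the former under stricter limits, -0.501 and -0.703 thinned, -0.470 and -0.851 with a pseudocount of 0.1, -0.503 and -0.738 without Cry1 and Npas2, -0.558 and -1.037 without Per1 and Per2, and -0.521 and -0.819 as a mean over nuclei. BALB/c minus nude without Per1 and Per2 was -0.515 in all nuclei and -0.648 in LS neurons. Causes were not tested. No paired analysis was possible because the groups share fewer than 2 replicate numbers.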

Other observations

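Another gene stood out in the BALB/c astrocytes, where Npas2, Arntl and Rora were high. Pde10a, a phosphodiesterase best known from striatal neurons, measured 115, 120, 140 and 1389 CPM there in the order of libraries used above. It was chosen after its values were seen. None of the other 5 striatal markers was highest in BALB/c: Rarb had 90.2, 77.1, 50.4 and 54.8 CPM and Drd1 9.66, 7.74, 4.74 and 2.25 CPM. No test was made, since BALB/c has 1 library.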
